A study of Mus musculus with 1073 samples.

Results

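The Hedgehog receptors and Gli factors were followed across the yolk sac of the mouse embryo between E7.25 and E10.5. The genes were fixed by name as *Ptch1*, *Smo*, *Hhip*, *Gli1*, *Gli2* and *Gli3*, and all 6 were among the 15967 genes of the filtered tables. Each was measured in 926 single cells of 13 sorted populations, which passed the authors' filter out of 1073 captured cells. The question was whether the genes that receive and relay a Hedgehog signal were found in yolk sac mesoderm, in blood or in endothelium.

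The mesoderm came from Flk1-GFP/+ embryos as Flk1-GFP+ cells. Each stage was sequenced in 2 lanes, with 73 and 74 kept cells at E7.25 and 53 and 87 at E7.75. Only mesoderm marked by the *Flk1* reporter was thus sampled. All other populations came from C57BL/6 embryos. Haematopoietic progenitors (HPC, named EMP in the labels) were sorted at E8.25 (73 cells) and E8.5 (89) as TER119− CDH5+ CD41+, and at E9.5 (46) and E10.5 (87) as TER119− CDH5− CD45+ CD41low. Primitive erythrocytes (EryP) were TER119+ cells without CD41 or CDH5 (66 cells at E8.5, and 3 at E10.5, where CD45 was also absent). Megakaryocytes (Mk) were TER119− CDH5− CD41+ at E8.5 (37) and TER119− CDH5− CD45− CD41high at E10.5 (73). Macrophages (Mac) were TER119− CDH5− CD41− CD45+ at E10.5 (25), and endothelium (Endo) was TER119− CD41− CDH5+ at E8.5 (79) and also CD45− at E10.5 (61). Embryos were untreated. Each cell was captured in a microfluidic chip and its cDNA was sequenced without molecular identifiers, and the values given are read counts or counts scaled by a size factor for each cell, whose sum had a median of 988403 per cell (called CPM).

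No embryo or pool was named for any cell, so each population is treated as 1 sample. There was no replicate, no test was made and no p-value is given. Intervals are exact, at 95%, and cover counting error only. A gene was called detected in a cell at 1 read count or more. A difference between populations was called at 2-fold or more on the scale of mean CPM plus 1, and it compares these libraries, not the stages or lineages.

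Total counts ran from 483830 to 5943204 per cell. Each of the 96 index pairs occurred in more than 1 lane, and none occurred more than once within a lane. Transcripts of both sexes were found together in 293 of 926 cells (31.6%), with the lowest share among populations of over 20 cells in E10.5 Mk (11.0%) and the highest in E8.5 Endo (59 of 79 cells, 74.7%), and the 20 remaining E8.5 Endo cells are used as a check beside results that rest on that population. Mesoderm markers were detected on average in 83.6% of E7.25 and 53.5% of E7.75 mesoderm cells and in at most 7.31% of the cells of a blood population. In Endo they were in 20.5% (E8.5) and 16.1% (E10.5) of cells on average. The mesoderm populations were mixed, with endothelial markers on average in 48.0% (E7.25) and 52.6% (E7.75) of cells. Their averages for erythroid markers were 6.67% (E7.25) and 38% (E7.75). Erythroid markers were detected on average in 94.1% of E8.5 Mk cells, against 64.9% for megakaryocyte markers. Endothelial markers were detected on average in 83.4% of E8.25 and 81.4% of E8.5 HPC cells, which were sorted as CDH5+, against 100% in E8.5 Endo. The summed level of 11 visceral endoderm markers had a median of 0 CPM in both mesoderm populations, where 2 and 3 of the 11 markers were at 0, against medians of 8.31 CPM in E8.5 Endo and 13.0 CPM in E10.5 Endo, where 3 and 4 were at 0. Much of the sum in Endo was *Sox17*, which endothelium also expresses (in 74.7% and 83.6% of cells), and without it the median was 0 CPM in both Endo populations.

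Hedgehog ligands bind the receptor PTCH1 at the cell surface. Without ligand, PTCH1 holds the transmembrane protein Smoothened (SMO) inactive. Bound ligand releases Smoothened at the primary cilium, and Gli zinc finger proteins then turn target genes on or off. *Ptch1*, *Gli1* and *Hhip* are themselves widely used as targets of the pathway, and in the mouse yolk sac visceral endoderm is known as a source of Indian hedgehog next to the mesoderm.

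On GRCm38, *Ptch1* (ENSMUSG00000021466) lies at chr13:63508328-63573598 on the minus strand, *Smo* (ENSMUSG00000001761) at chr6:29735503-29761365 on the plus strand, and *Hhip* (ENSMUSG00000064325) at chr8:79965851-80058006 on the minus strand. *Gli1* (ENSMUSG00000025407) lies at chr10:127329882-127341974 on the minus strand, *Gli2* (ENSMUSG00000048402) at chr1:118834132-119053619 on the minus strand, and *Gli3* (ENSMUSG00000021318) at chr13:15463235-15730026 on the plus strand. All are protein coding. *Gli1* shares exon bases with *Arhgap9* and Gm47200, *Gli3* with Gm6556 and *Hhip* with Gm27820, each on the opposite strand. The library kit does not mark strand, so reads from those bases cannot be assigned to a strand.

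The promoter windows of *Ptch1* and *Gli2* are shown as examples picked on different measures. *Ptch1* had the highest level per kilobase of the 6 genes at E7.75, and *Gli2* was nearly absent outside mesoderm. Each window is the 250 bases before the RefSeq start (GRCm38.p6), printed along the gene's own minus strand, with a GC box (GGGCGG) in capitals. The *Ptch1* window is at chr13:63565736-63565985, inside the span of the Ensembl gene but outside its exons, and the *Gli2* window is at chr1:119053620-119053869.
Ptch1: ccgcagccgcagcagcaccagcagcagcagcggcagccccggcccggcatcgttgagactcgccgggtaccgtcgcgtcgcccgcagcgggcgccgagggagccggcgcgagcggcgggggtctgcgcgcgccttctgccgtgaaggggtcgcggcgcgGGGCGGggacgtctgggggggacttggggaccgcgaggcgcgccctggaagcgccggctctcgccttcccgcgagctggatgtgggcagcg
Gli2: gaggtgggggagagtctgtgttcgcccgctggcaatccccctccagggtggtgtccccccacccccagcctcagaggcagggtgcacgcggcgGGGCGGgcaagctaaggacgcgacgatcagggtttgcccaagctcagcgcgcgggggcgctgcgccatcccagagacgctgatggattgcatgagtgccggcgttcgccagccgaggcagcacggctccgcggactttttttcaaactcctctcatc

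The *Ptch1* window had 78.4% G or C and 41 CpG dinucleotides, and the *Gli2* window had 67.2% and 22. The median over 32851 windows of the same length was 52.4% with 6 CpG dinucleotides, so both lay above it. The windows of *Smo* (68.4%, 15 CpG), *Gli3* (72.8%, 34 CpG) and *Hhip* (76.0%, 28 CpG) did too. The *Gli3* window lay wholly within an annotated exon, and the RefSeq table matched 5 of the 6 genes, without *Gli1*. The GC box (GGGCGG or CCGCCC, both strands) was found in 4 of the 5 windows, with 2 copies each in *Gli3* and *Hhip*, and in 32.7% of all windows. The letters GACCACCCA, bound by Gli proteins, were in none of the 5 windows on either strand and in 0.225% of all windows. The shorter CCACCCA, which is part of them, was in none of the 5 and in 8.11% of all, and TATAAA was in none of the 5 and in 12.4% of all.

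*Ptch1*, which encodes the receptor that binds Hedgehog ligands, was detected in every mesoderm cell, both at E7.25 (97.5 to 100%) and at E7.75 (97.4 to 100%). Its mean level was 183 CPM at E7.25 (lower quartile 43.0, median 131.8, highest cell 932 CPM) and 307 CPM at E7.75 (lower quartile 54.8, median 183, highest cell 1914 CPM). Mesoderm was thus the highest population at both stages, with a wide spread among cells of 1 stage. The gene was not absent elsewhere. In blood it was detected in 392 of 499 cells (78.6%, 74.7 to 82.1%), with population means from 9.40 CPM in E10.5 Mk to 44.0 CPM in E8.5 EryP, where 23.7% of the total was in 1 cell. The 4 HPC populations lay close together, with 31.6 CPM in the earliest and 25.6 CPM in the latest. Endothelium had 38.2 CPM at E8.5 (68 of 79 cells) and 21.0 CPM at E10.5 (38 of 61 cells).

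The cells overlapped in level. A *Ptch1* value at or above the E7.25 mesoderm median was found in 21 of 499 blood cells (4.21%) and 12 of 140 endothelial cells (8.57%), and one at or above the E7.75 median in 12 (2.40%) and 7 (5.00%). In order of mean level, only the step from E7.25 mesoderm to E8.5 EryP had shares of detecting cells whose intervals did not overlap, among the 12 steps from each population to the next. The quartile ranges of neighbours overlapped at every step. With each cell thinned to 840000 counts, which left out 46 of 926 shallower cells (18 of them E7.75 mesoderm), *Ptch1* was still detected in 100% of mesoderm cells at both stages, and in 44.0 to 85.4% of cells of the blood and endothelial populations of over 20 cells.

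*Smo*, the signal transducer that PTCH1 restrains, was also found in most mesoderm cells. At E7.25 it was detected in 93.2% of cells (87.8 to 96.7%) at a mean of 59.4 CPM, and at E7.75 in 95% (90.0 to 97.97%) at 67.0 CPM. Endothelium followed, with 36.1 CPM at E10.5 (23 of 61 cells) and 26.8 CPM at E8.5 (49 of 79). Among blood populations the mean ran from 9.55 CPM in E8.5 Mk (13 of 37 cells) to 24.3 CPM in E9.5 HPC (20 of 46, with 56.5% of the total in 1 cell). E10.5 Mk stood apart from these, with *Smo* in 1 of 73 cells (1.37%, 0.0347 to 7.40%) and a mean of 0.119 CPM. That population still had *Ptch1* in 40 of 73 cells (54.8%, 42.7 to 66.5%), so the receptor and its partner were detected in very different shares of the same cells. A *Smo* value at or above the mesoderm median of 39.2 CPM was found in 57 of 499 blood cells (11.4%) and 19 of 140 endothelial cells (13.6%).

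*Hhip* encodes a membrane protein that binds and sequesters Hedgehog ligands. At E7.25, 15 mesoderm cells had it (10.2%, 5.82 to 16.3%) at a mean of 4.67 CPM, and at E7.75 28 cells (20%, 13.7 to 27.6%) at 3.77 CPM. Single cells carried much of these means, with 79.8% of the E7.25 total in 1 cell. In E8.5 Endo it was detected in 7 of 79 cells (8.86%, 3.64 to 17.4%), and the mean of 21.3 CPM, the highest of any population, had 95.8% of its total in 1 cell. Without cells holding transcripts of both sexes, it was in 4 of 20 cells (20%) at a mean of 1.88 CPM. It was found in 11 of 499 blood cells (2.20%), all of them HPC, and in 1 of 61 E10.5 Endo cells. The order of populations by mean level therefore differed from the order by share of cells over all cells, in which E7.75 mesoderm was highest, and without cells holding transcripts of both sexes E8.5 Endo (20%) lay above E7.75 mesoderm (17.9%).

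**Figure D1:**
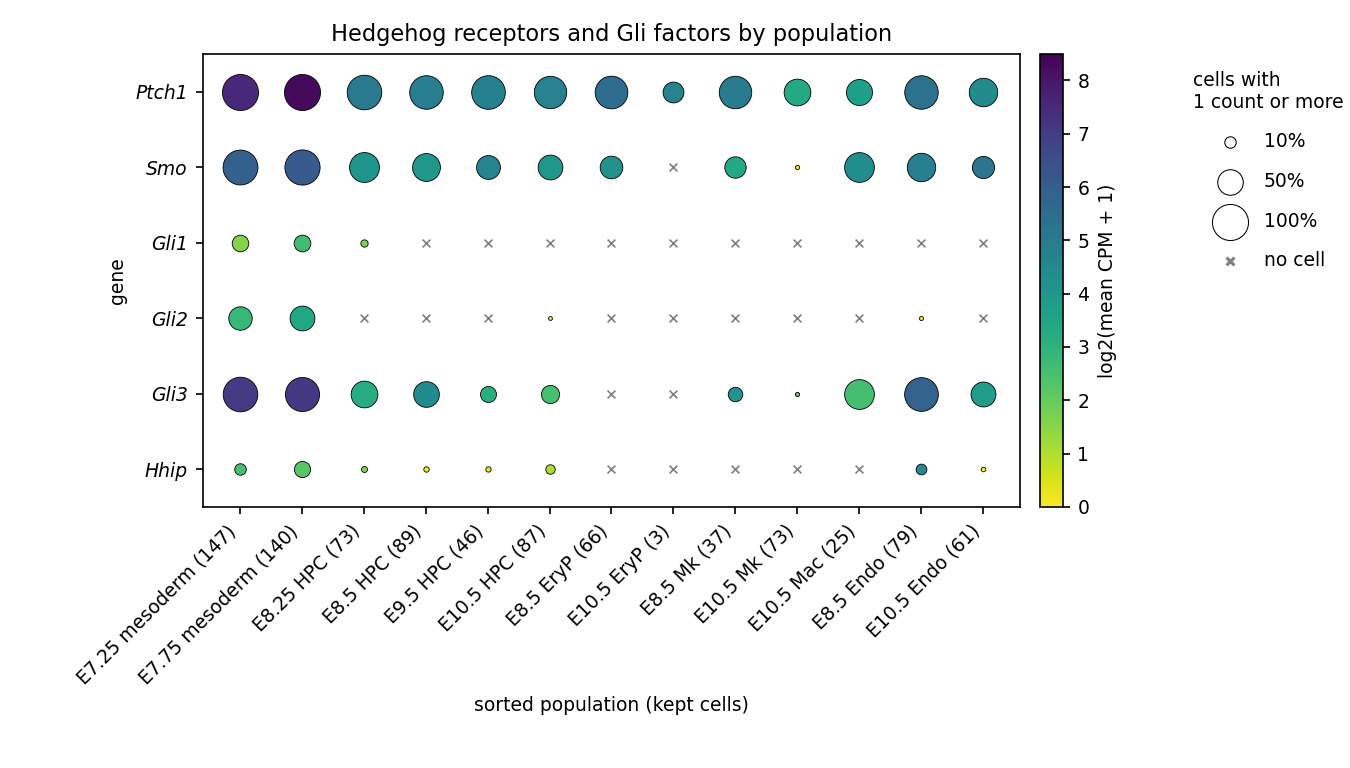
Hedgehog receptors and Gli factors (rows) in the 13 sorted populations (columns, with the number of kept cells). Dot area follows the share of cells with 1 read count or more and colour the log2 of mean CPM plus 1, and a cross marks a population in which no cell had a count. *Ptch1* was found in every population, whereas *Gli2* was found in 42.2% and 47.1% of mesoderm cells and in 1 cell each of E10.5 HPC and E8.5 Endo.

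*Gli3*, known mainly as the Gli factor that acts as a repressor without ligand, was the most frequent Gli gene. At E7.25 it was detected in 91.8% of mesoderm cells (86.2 to 95.7%) at a mean of 128.4 CPM, and at E7.75 in 89.3% (82.9 to 93.9%) at 136.97 CPM. E8.5 Endo had it in a like share of cells (69 of 79, 87.3%, 78.0 to 93.8%) at a lower mean of 56.8 CPM. When cells with transcripts of both sexes were left out it was in 18 of 20 (90.0%), at 36.4 CPM. E10.5 Endo had it in 29 of 61 cells (47.5%) at 12.8 CPM. In HPC the share fell into a higher pair, 54.8% (E8.25) and 50.6% (E8.5), and a lower pair, 19.6% (E9.5) and 25.3% (E10.5). It was in 17 of 25 macrophages (68.0%, 46.5 to 85.0%) at a mean of 4.87 CPM. No EryP cell had a count, and the exact interval for 0 of 66 at E8.5 reaches up to 5.44%. It was in 1 of 73 E10.5 Mk cells. In its order by mean level, *Gli3* had share intervals apart at 7 of the 12 steps, the most of the 6 genes. The shares rose and fell along that order, with 16.2% in E8.5 Mk, 47.5% in E10.5 Endo and 19.6% in E9.5 HPC. These steps therefore do not rank the populations by share.

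*Gli2*, known mainly as the activating Gli factor, was found in mesoderm and almost nowhere else. At E7.25, 62 cells had it (42.2%, 34.1 to 50.6%) at a mean of 6.00 CPM, and at E7.75 66 cells (47.1%, 38.7 to 55.8%) at 9.85 CPM. Of 639 blood and endothelial cells, 2 had a count (0.313%, 0.0379 to 1.13%). These were 1 E10.5 HPC cell with 12 counts and 1 E8.5 Endo cell with 1 count. Thinning to 840000 counts left *Gli2* in 36.1% and 35.2% of the mesoderm cells.

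*Gli1*, whose transcription is switched on by the pathway and which serves as its usual readout, was the rarest Gli gene. At E7.25, 31 mesoderm cells had it (21.1%, 14.8 to 28.6%) at a mean of 1.99 CPM, and at E7.75 30 cells (21.4%, 14.9 to 29.2%) at 5.12 CPM. The shares were alike, and 52.3% of the E7.75 total was in 1 cell. Outside mesoderm it was found in 3 of 639 cells (0.469%, 0.0969 to 1.37%), all of them E8.25 HPC, where 96.7% of the total of 2.18 CPM was in 1 cell. No endothelial cell of 140 had a count.

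**Figure D2:**
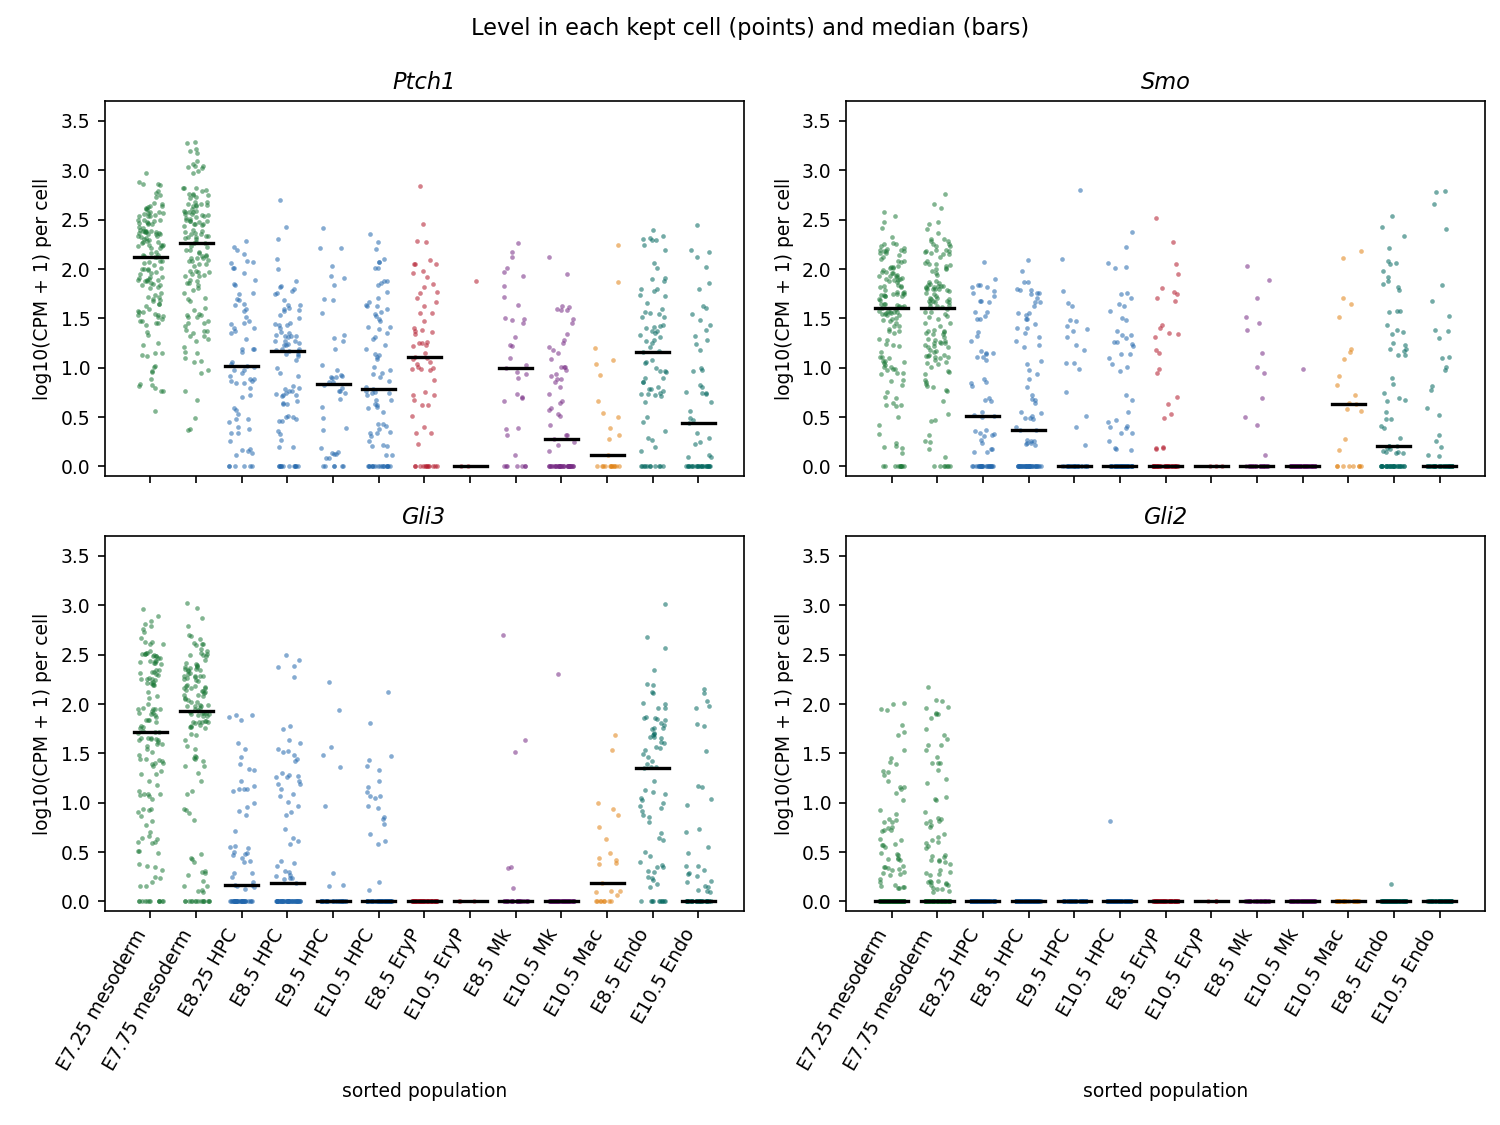
Level in single cells (points, log10 of CPM plus 1) and median (bars) in the 13 sorted populations, for *Ptch1*, *Smo*, *Gli3* and *Gli2*. *Ptch1* is above 0 in all 287 mesoderm cells, with blood and endothelial cells reaching into the same range. *Gli2* is at 0 in most mesoderm cells.

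Per kilobase of exon, which allows levels of different genes to be compared, the mesoderm levels fell into an upper and a lower group. At E7.75 the upper group was *Ptch1* (21.7 CPM per kb), *Gli3* (14.3) and *Smo* (11.9), and the lower group was *Gli2* (1.43), *Gli1* (1.03) and *Hhip* (0.415). At E7.25 *Gli3* (13.4) and *Ptch1* (12.9) were nearly level, followed by *Smo* (10.6), *Gli2* (0.874), *Hhip* (0.515) and *Gli1* (0.398).

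To set mesoderm against blood on the same flow cell, E7.25 mesoderm was compared with the mean of the 4 blood populations of E8.25 and E8.5, and E7.75 mesoderm with the 4 of E9.5 and E10.5, without the 3 EryP cells. Stage and the Flk1-GFP genotype differ between the sides of each comparison of mesoderm with blood or endothelium. The paper also describes trypsin for dissociating E7 yolk sacs and collagenase-dispase for later stages. These differences cannot be told apart from cell type. At E7.25, 5 of the 6 genes were called higher in mesoderm and none lower, where 13.7% of all 14266 genes tested were called higher and 13.3% lower. The log2 ratios were 3.41 for *Gli3*, 2.81 for *Gli2*, 2.40 for *Ptch1*, 1.98 for *Smo*, 1.93 for *Hhip* and 0.95 for *Gli1*, which was within 2-fold. Without the E8.25 HPC, which held the only *Gli1* counts in blood, *Gli1* was at 1.58 and all 6 were called higher. At E7.75 all 6 genes were called higher, where 15.7% of 14839 genes were called higher and 20.6% lower. The log2 ratios were 4.53 for *Gli3*, 3.99 for *Ptch1*, 3.42 for *Gli2*, 2.61 for *Gli1*, 2.13 for *Smo* and 1.87 for *Hhip*. The 6 genes had a median of 2.19 in the E7.25 and 3.02 in the E7.75 comparison, beside −0.08 and −0.03 over all genes tested.

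A ratio on the scale of mean CPM plus 1 understates a gene that is near 0 on 1 side. *Gli2* had no count in blood at E8.25 and E8.5, and its level in E7.25 mesoderm was 973-fold over a floor of 3 counts for the group. *Gli1* had no count in blood at E9.5 and E10.5. Its level in E7.75 mesoderm was 793-fold over the floor, or 326-fold without the first lane of that stage. The floor is in reads, and 1 cell can hold many (67 *Gli1* counts in 1 E8.25 HPC cell). These folds are thus not lower limits. By cells, *Gli2* was in 0 of 265 blood cells (up to 1.38%) against 42.2% of mesoderm. For *Gli1* the shares were 0 of 231 (up to 1.58%) against 21.4%. *Hhip* at E7.25 depended on 1 lane. Without the second lane of that stage its ratio to blood was −0.24.

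Against endothelium, *Ptch1*, *Gli1*, *Gli2* and *Gli3* were called higher in mesoderm at both stages. Between E7.25 mesoderm and E8.5 Endo, 5 of the 6 genes were called higher in mesoderm (16% of 14247 genes tested were higher) and *Hhip* was called lower (19.8% were lower). The log2 ratios were 2.80 for *Gli2*, 2.23 for *Ptch1*, 1.58 for *Gli1*, 1.16 for *Gli3*, 1.12 for *Smo* and −1.97 for *Hhip*. *Gli1* was 92.9-fold over the floor of reads. Without cells holding transcripts of both sexes the ratio of *Hhip* turned to 1.26 and that of *Smo* fell below the call, to 0.85, so 5 genes were again called higher. *Gli3* fell below 2-fold without the first lane of E7.25 (0.99), and *Smo* without the second (0.86), which left 4 genes called in each case.

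Between E7.75 mesoderm and E10.5 Endo, 5 of the 6 genes were called higher in mesoderm, where 24.9% of 14459 genes were higher and 26.2% lower, and none of the 6 was lower. The log2 ratios were 3.81 for *Ptch1*, 3.44 for *Gli2*, 3.32 for *Gli3*, 2.61 for *Gli1*, 2.24 for *Hhip* and 0.88 for *Smo*. *Smo* was thus within 2-fold. Over the floor of reads, *Gli2* was 358-fold and *Gli1* 186-fold, or 76.6-fold for *Gli1* without the first lane of E7.75. The same number was called without cells holding transcripts of both sexes. The *Hhip* ratio rests on 1 count in 1 endothelial cell.

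Endothelium and blood differed in fewer of the genes. The blood of E8.25 and E8.5 includes the CDH5+ HPC, in which endothelial markers were frequent. At E8.5, *Gli3* (log2 ratio 2.25) and *Hhip* (3.90) were called higher in Endo than in the 4 blood populations, where 19.9% of 14131 genes were higher and 14.6% lower. Without cells holding transcripts of both sexes *Gli3* stayed above the call at 2.39 and *Hhip* did not, at 0.71. At E10.5, *Smo* (1.25) and *Gli3* (1.21) were called higher in Endo, where 23.8% of 14568 genes were higher and 26.4% lower. *Smo* was in like shares of cells, 37.7% in E10.5 Endo and 34.2% in the 4 blood populations. In Endo 27.8% of its total was in 1 cell, and with summed counts neither gene was called. Without cells holding transcripts of both sexes *Gli3* fell to 0.71, and without E10.5 Mk *Smo* fell to 0.86. *Ptch1* was within 2-fold in both (0.17 and 0.18). It was thus called in every comparison of mesoderm with blood or endothelium, but not between the sorted Endo and blood populations.

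**Figure D3:**
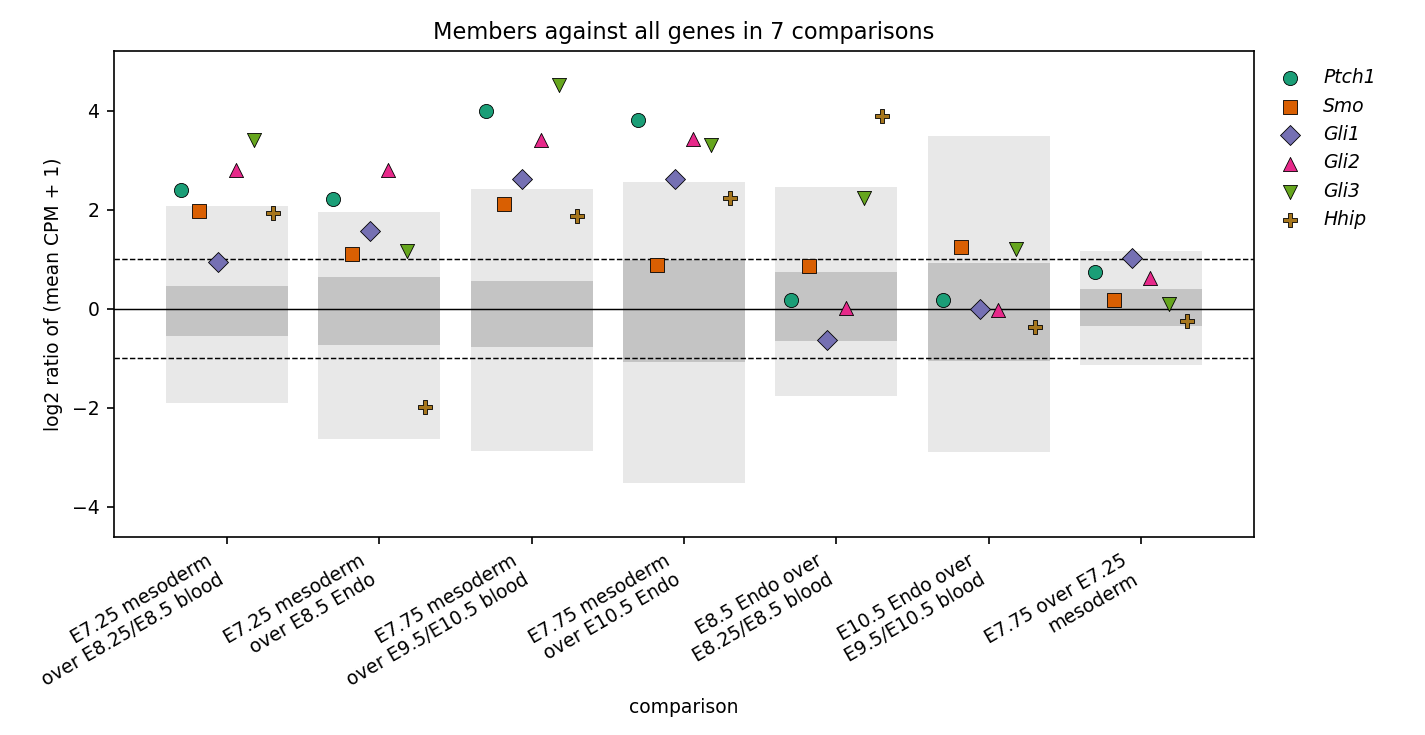
Log2 ratio of mean CPM plus 1 of the 6 genes (symbols) in 7 comparisons of populations, over the range of all genes tested (dark band, middle 50%; light band, 5th to 95th percentile), with dashed lines at 2-fold. The symbols lie above 0 in both comparisons of mesoderm with blood, with *Gli3* at 3.41 and 4.53 and *Ptch1* at 2.40 and 3.99, and *Hhip* lies below 0 against E8.5 Endo.

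Each mesoderm stage had 2 sequencing lanes, which show how far a mean moved between sets of cells of 1 stage. *Ptch1* had 150.6 and 214 CPM in the lanes of E7.25 and 350 and 282 CPM in those of E7.75. *Gli3* was steady, at 143.1, 113.9, 141.04 and 134.5 CPM. *Smo* had 49.7, 69.0, 82.4 and 57.7 CPM, *Gli2* 4.12, 7.86, 12.2 and 8.40 CPM, and *Gli1* 1.66, 2.31, 10.1 and 2.11 CPM. *Hhip* varied most, at 0.258, 9.03, 5.28 and 2.85 CPM. Both lanes of E7.75 were above both of E7.25 for *Ptch1* and *Gli2*, and the lanes of the stages overlapped for *Smo*, *Gli1*, *Gli3* and *Hhip*.

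Between the stages, the log2 ratio of E7.75 over E7.25 was 1.03 for *Gli1*, 0.75 for *Ptch1*, 0.63 for *Gli2*, 0.17 for *Smo*, 0.09 for *Gli3* and −0.25 for *Hhip*. Thus 1 of the 6 genes was called, where 6.85% of 13967 genes were higher and 6.62% lower at E7.75. The *Gli1* call rested on the first lane of E7.75, without which its ratio was 0.05 and no gene was called. Without the second lane of E7.25 *Ptch1*, *Gli1*, *Gli2* and *Hhip* were called, all higher at E7.75 (1.92 for *Hhip*), and without its first lane *Hhip* was the one gene called, lower at E7.75 (−1.07). The direction of *Hhip* between stages thus turned with the lane left out. The stages were sequenced on different flow cells, so stage and run cannot be told apart.

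Within mesoderm, the cells were set apart by how many of 6 haemato-endothelial genes (*Kit*, *Gata2*, *Fli1*, *Hhex*, *Lmo2* and *Tal1*, regulators of early blood and endothelium) they had at 1 count or more. Cells with 4 or more formed the haemato-endothelial class, with 86 cells at E7.25 and 91 of 140 at E7.75, and 61 and 49 cells lay outside it. The class is a range and not a cell type: 23 and 25 cells had exactly 3 of the genes, and 25 and 20 exactly 4. *Ptch1* was higher in the cells outside the class in each of the 4 lanes, at 206 against 125.2 CPM and 271 against 154.1 CPM at E7.25, and at 622 against 210 CPM and 419 against 206 CPM at E7.75. *Gli3* showed the same order, at 183 against 124.6 CPM, 134.8 against 91.9 CPM, 224 against 98.5 CPM and 186 against 106.04 CPM. *Gli1* did as well, at 2.13 against 1.44 CPM, 3.69 against 0.857 CPM, 26.0 against 1.87 CPM and 4.56 against 0.749 CPM. The 26.0 CPM rested mainly on 1 of 18 cells, at 375 CPM, and by share of cells *Gli1* was less frequent outside the class in the first lane of E7.25 (21.7% against 24%). *Foxf1*, which marks this mesoderm, moved the same way in all 4 lanes, at 76.7 against 53.2 CPM, 71.3 against 54.1 CPM, 159.01 against 82.9 CPM and 153.7 against 71.1 CPM, and its part in the order was not tested.

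The other 3 genes had no such order of mean level. *Gli2* was detected in a larger share of cells outside the class in each lane, by 28.5, 11.0, 12.5 and 12.3 percentage points, while its mean was lower outside the class in the first lane of E7.25 (3.54 against 4.38 CPM). *Smo* was higher outside the class in 1 of the 4 lanes, and *Hhip* in 1. Among cells with 2 to 3, 4 to 5 and all 6 of the haemato-endothelial genes, mean *Ptch1* was 244, 149.04 and 118.4 CPM at E7.25 and 470, 343 and 126.6 CPM at E7.75. With 3 or more genes as the limit, *Ptch1* and *Gli1* kept a higher mean outside the class in all 4 lanes and *Gli3* did not, being lower in the second lane of E7.25 (log2 ratio −0.49). Thinned to 840000 counts, the order of *Ptch1*, *Gli1* and *Gli3* was the same in all 4 lanes.

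**Figure D4:**
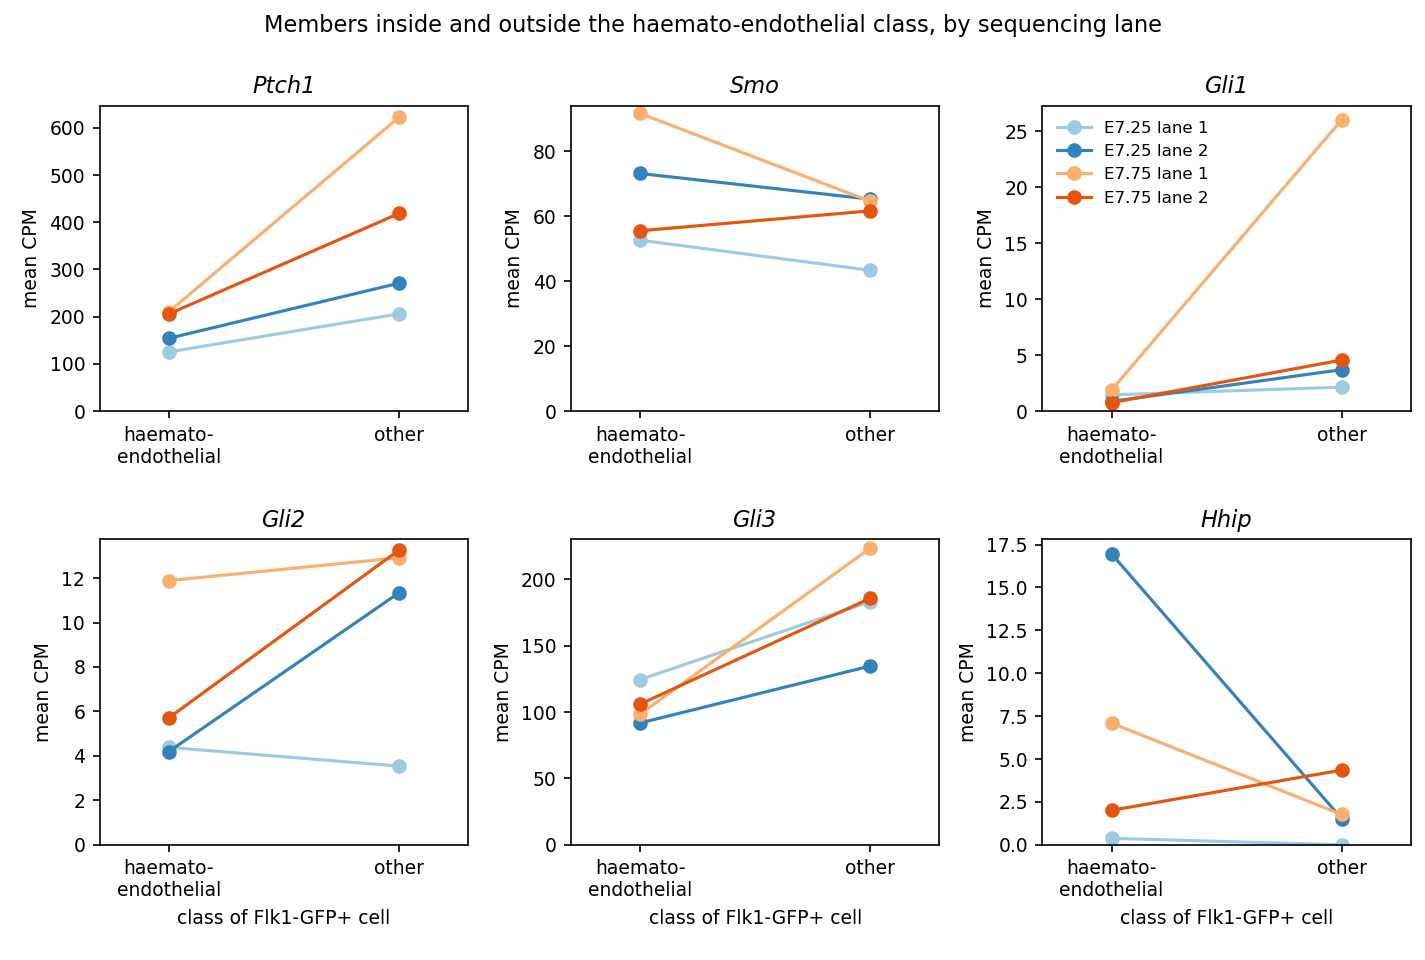
Mean CPM of the 6 genes in mesoderm cells of the haemato-endothelial class (4 or more of 6 genes) and in the other mesoderm cells, in each of the 4 lanes. *Ptch1* is higher outside the class in every lane, with the widest gap in the first lane of E7.75 (622 against 210 CPM).

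A cell needs more than 1 of these proteins to relay a signal, so their detection together was counted. *Ptch1*, *Smo* and *Gli3* were detected together in 85.0% of the E7.25 and 84.3% of the E7.75 mesoderm cells. The share was 46.8% in E8.5 Endo (9 of 20 cells, 45%, without those holding transcripts of both sexes), 28.8% in E8.25 HPC, 28.1% in E8.5 HPC, 28.0% in Mac and at most 14.9% in each other population, with 0 of 66 cells in E8.5 EryP and 0 of 73 in E10.5 Mk. At E7.25, 62 mesoderm cells had 2 Gli genes and 13 all 3, and 7 had none. At E7.75 the numbers were 56, 19 and 13. Outside mesoderm, 3 cells had 2 Gli genes and none had 3. All 6 genes were found together in 8 cells, all of E7.75 mesoderm.

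Cells in which the readout *Gli1* was detected had more *Ptch1*. The mean was 257 CPM in the 31 cells with *Gli1* against 163 CPM in those without it at E7.25, and 460 CPM in the 30 cells with it against 266 CPM at E7.75. The order held in each of the 4 lanes, at 248 against 121.02, 267 against 202, 607 against 275 and 362 against 261 CPM. Cells with *Gli2* also had a higher *Ptch1* mean in each lane, with the widest gap in the first lane of E7.75 (537 against 140.6 CPM) and the narrowest in the first of E7.25 (156.2 against 147.4 CPM). Cells with *Gli3* did too, at 155.5 against 84.95, 216 against 199, 378 against 192 and 304 against 29.0 CPM. Cells without *Gli3* numbered 5, 7, 8 and 7 in these lanes. *Foxf1* was higher with *Gli1* in each lane, at 62.6 against 60.0, 87.9 against 57.1, 132.98 against 101.7 and 108.9 against 98.4 CPM. It was also higher with *Gli2* in each lane. With *Gli3* the gap in *Foxf1* was wider, at 63.6 against 20.3, 67.3 against 21.3, 121.6 against 36.4 and 109.2 against 1.39 CPM. The median number of haemato-endothelial genes was 4 with *Gli3* and 5 without it at E7.25, and 4 and 6 at E7.75. For *Gli2* these medians were 3 and 5 at E7.25, and 4 and 6 at E7.75. The part of *Foxf1* and of the haemato-endothelial genes was not tested. *Hhip* did not show the order of *Ptch1* throughout. Cells with it had a lower *Ptch1* mean in the first lane of E7.25 (107.2 against 152.5 CPM, with 3 cells), a like mean but a lower median in the second (215 against 214 CPM, medians 70.0 and 198 CPM), and a higher mean in both lanes of E7.75 (488 against 305 CPM and 463 against 244 CPM). As pairs, *Gli1* and *Gli3* were the only pair of 15 found together more often than their shares would give if unrelated in all 4 lanes, and the excess was small (16 cells against 15.8 in the first lane of E7.25). Pairs with *Ptch1* could show no excess, because every mesoderm cell had it. With detection at 10 counts or more, *Gli2* and *Gli3* were the only such pair instead. Mesoderm cells share lanes and differ in depth, so the counts are a description.

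The rest of the pathway was followed through lists of genes by role. The 4 co-receptors and binding proteins listed (*Cdon*, *Boc*, *Gas1* and *Lrp2*) were all called higher in mesoderm than in blood at both stages, with a median log2 ratio of 2.37 and 2.80, where 13.7% and 15.7% of all genes were called higher. *Gas1*, a co-receptor held at the membrane by a lipid anchor, was in 70.7% and 50% of mesoderm cells at 10.3 and 7.17 CPM, and in none of the E9.5 and E10.5 HPC cells. *Boc*, a transmembrane co-receptor, had 4.49 and 5.24 CPM in mesoderm and 0.425 CPM in E8.5 Endo (0.1199 CPM without cells holding transcripts of both sexes), with no count in E10.5 Endo. *Cdon*, a relative of *Boc*, followed another order, with 2.92 and 3.31 CPM in mesoderm, 7.32 CPM in E8.5 Endo (15 of 79 cells, and 16.6 CPM without those holding transcripts of both sexes) and 34.9 CPM in E10.5 Endo, where 52.7% of the total was in 1 of 12 detecting cells. It was called higher in mesoderm than in blood and lower than in endothelium at both stages.

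The genes that act between Smoothened and the Gli factors had medians near those of all genes, at 0.29 and 0.20. Of 17 regulators tested, 2 were called higher and 1 lower in mesoderm than in blood at E7.25, where 13.7% of all genes were higher and 13.3% lower. At E7.75, 6 were higher and 1 lower, where 15.7% were higher and 20.6% lower, so the count of higher genes lay near the background at E7.25 and above it at E7.75. *Sufu*, which holds Gli proteins in the cytoplasm, was found in every population, at 27.7 and 27.6 CPM in mesoderm, 49.6 CPM in E8.5 Endo and 47.2 CPM in E9.5 HPC. *Kif7*, a ciliary kinesin of the pathway, had 2.59 and 3.52 CPM in mesoderm. *Gpr161*, a ciliary receptor that restrains the pathway, had 3.16 CPM (23 cells) and 1.92 CPM (14 cells) in mesoderm, was in 1 cell of each HPC population and had no count in any other population. Of 11 genes of the cilium, 1 was called higher and 1 lower at E7.25, and 3 higher and 1 lower at E7.75, against the same background shares.

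Genes named as possible targets in mesoderm were mostly higher there than in blood, with 11 higher and 2 lower of 16 at E7.25 and 11 higher and 1 lower of 15 at E7.75, and with medians of 1.45 and 2.19, beside 13.7% and 15.7% of all genes higher. The list was as high in endothelium, with 11 of 15 higher in E8.5 Endo than in blood (median 2.43, and 19.9% of all genes). Between mesoderm and endothelium, list genes went both ways. At E7.25, 8 of 17 were higher and 5 lower in mesoderm, where 16% of all genes were higher and 19.8% lower. At E7.75, 8 of 16 were higher and 3 lower, where 24.9% of all genes were higher and 26.2% lower. Several of the possible targets mark mesoderm or endothelium by themselves. *Foxf1*, a forkhead factor of lateral and extraembryonic mesoderm, had 61.8 and 103.6 CPM in mesoderm, 28.0 CPM in E8.5 Endo and 63.3 CPM in E10.5 Endo. *Bmp4*, a growth factor of the same mesoderm, had 96.8 and 112.3 CPM in mesoderm, 43.4 and 28.0 CPM in Endo, and 31.8 and 28.8 CPM in Mk at E8.5 and E10.5. In E10.5 Mk 72.4% of the *Bmp4* total was in 1 of 21 detecting cells. Of all list genes, 18 were called higher in mesoderm than in blood at both stages. The lists held 3 (ligands and release), 4 (co-receptors), 17 (regulators), 11 (cilium) and 17 (possible targets) genes of the filtered tables. The share of all genes called higher at both stages was not counted, so the 18 are a description. Among these, the 3 with the highest mean log2 ratio were *Hand1* (7.26 and 7.44), *Foxf1* (5.22 and 6.28) and *Lrp2* (3.21 and 6.15). *Hand1* is a transcription factor of lateral and extraembryonic mesoderm, and *Lrp2* encodes the endocytic receptor megalin.

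**Figure D5:**
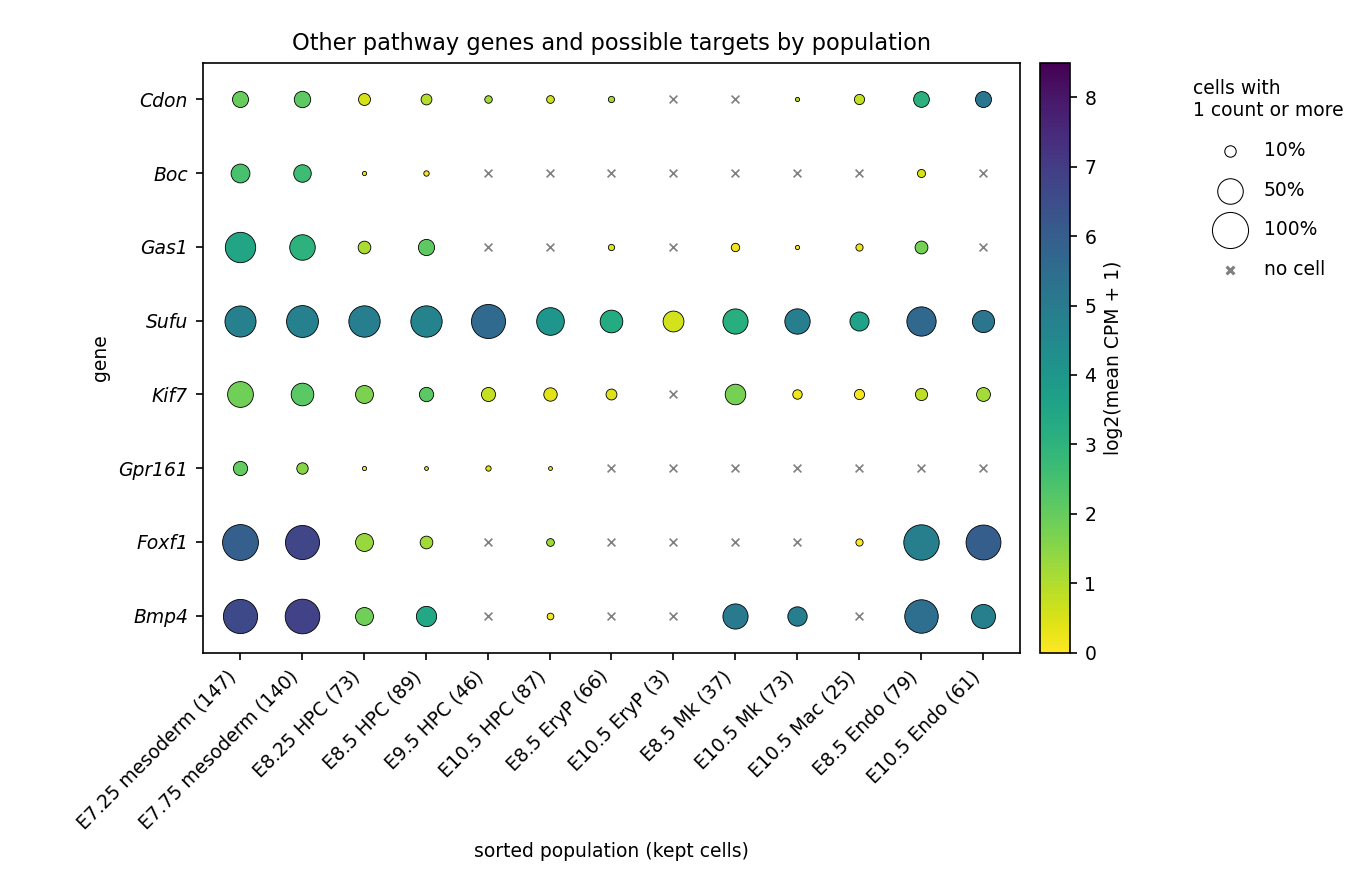
Co-receptors, regulators and possible targets of the pathway (rows) in the 13 sorted populations (columns, with the number of kept cells). Dot area follows the share of cells with 1 read count or more and colour the log2 of mean CPM plus 1, and a cross marks a population in which no cell had a count. *Cdon* is highest in E10.5 Endo (34.9 CPM), *Boc* and *Gas1* in mesoderm, and *Sufu* is found in every population.

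Ligands were read from the unfiltered counts, where they were rare in the kept cells. *Shh* had no count in any of the 926 cells. An approximate upper limit on its share, which is not an exact interval, is 0.324%. *Ihh* was found in 1 E7.25 mesoderm cell and 1 E8.5 HPC cell, with 2 counts each. *Dhh* was found in 5 of 61 E10.5 Endo cells (a mean of 1.42 CPM, with 85 counts in 1 cell), in 4 of 66 E8.5 EryP cells (5 counts), in 1 E7.25 mesoderm cell (45 counts) and in 1 E10.5 HPC cell (1 count). Visceral endoderm, a known source of *Ihh*, was not among the sorted populations. Within mesoderm, mean *Ptch1* was 118.9 CPM in 33 cells with a count of any visceral endoderm marker and 201 CPM in the other cells at E7.25, and 236 CPM in 29 such cells and 326 CPM in the others at E7.75.

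The genes whose mean levels followed each of the 6 most closely over the 12 populations of over 20 cells were found by Pearson's r of log2(mean CPM + 1) among 12193 genes. With so few points, which share flow cells, these are descriptions. For *Ptch1* they were *Tpd52l1*, *Morc4* and *Gpc6* (each r = 0.94), and *Gpc6* is a glypican of the cell surface. For *Gli2* they were *Frem2*, *Cdx4* and *Apela* (each r = 1.00), which like *Gli2* were nearly absent outside mesoderm, with at most 0.0502 CPM in any other population. *Cdx4* is a caudal-related transcription factor and *Apela* encodes a peptide ligand of the apelin receptor. For *Gli3* they were *Nbeal1* (0.95), *Usp22* (0.93) and *Zfp449* (0.92), for *Gli1* *Tyro3* (0.95), *Myrf* (0.90) and 2700046A07Rik (0.90), for *Smo* 1110059E24Rik (0.93), *Stmn1* (0.92) and *L3mbtl3* (0.90), and for *Hhip* *Serpinb9b* (0.91), *Steap2* (0.89) and *Kank1* (0.89).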

How the data were processed

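Single cells of 13 populations sorted from mouse yolk sac were captured on Fluidigm C1 chips and sequenced as paired 100-base reads from Nextera XT libraries. The authors aligned reads to GRCm38 (Ensembl 84) with the Rsubread package and summed the deposited read counts per gene with featureCounts (Subread). Versions were not given in the sources used here. The authors then filtered cells and genes with scater and divided counts by scran size factors, and this deposited signal is called CPM here, although its sum per cell had a median of 988403. Unfiltered read counts, also deposited, hold 47643 genes and were used for ligands and removed cells.

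Shares of cells, means and ratios were computed from these in Python 3.11.15 (pandas 2.3.3 and numpy 2.4.6 for the tables, scipy 1.17.1 for intervals, matplotlib 3.10.9 for plots). The background of a comparison was every gene whose mean reached 1 CPM on either side, with a pseudocount of 1 CPM. Shares have Clopper-Pearson and sums Poisson intervals. Reads without molecular identifiers are not independent molecules. The scripts were tested on simulated data. Groups came from the sample labels, blood is the mean of 4 population means, and mesoderm lanes are those of the sequencer in the labels, which name no chip for a cell. Named beside the 6 genes were 11 pathway genes, the 3 list genes with the largest mean ratio, and the 3 genes closest to each member among those reaching 10 CPM. 1 item of the lists is not reported here, and counts leave it out. The genes and lists were chosen with earlier results of these data known. Exon lengths came from GENCODE M21 and promoters from RefSeq. Doublets were not removed. Alternatives were other scalings, thinning, pseudocounts of 0.1 and 10, detection at 10 counts, a call at 4-fold, leaving out populations or lanes, and leaving out cells with 5 counts or more of *Xist* and of Y-linked genes. All sample columns were used.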

Additional observations from a re-analysis of the deposited data

Results flagged for a closer look

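*Hhip* differed in direction between the stages when set against endothelium on the same flow cell. Its log2 ratio of mesoderm over E8.5 Endo was −4.15 and −1.15 in the lanes of E7.25, and that over E10.5 Endo was 2.64 and 1.93 in the lanes of E7.75. The difference was not tested. In E8.5 Endo 95.8% of the *Hhip* total was in 1 of 79 cells, and E10.5 Endo had 1 count.

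*Dhh*, which is outside the filtered tables, had more than 3 counts in 3 populations. Its mean, from raw counts over each cell's total, was 1.42 CPM in E10.5 Endo (5 of 61 cells), 0.1605 CPM in E7.25 mesoderm (1 cell) and 0.0437 CPM in E8.5 EryP (4 of 66 cells).

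Cells that the authors' filter removed also held the 6 genes. Of 22 removed mesoderm cells, 21 had *Ptch1*, 18 *Smo*, 16 *Gli3*, 10 *Gli2*, 5 *Gli1* and 3 *Hhip*. Of the removed blood and endothelial cells, 44 had *Ptch1* (35.2%, 26.9 to 44.2%), 21 *Smo* (16.8%) and 17 *Gli3* (13.6%), and none had *Gli2*.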

How the results depend on the processing

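Of the counts recomputed under an alternative, 80 stayed within 1.5 times the reported count and 23 did not, and all 14 background shares did. Of 456 log2 ratios, 395 moved by less than the spread set for them, 59 moved by more and 2 of those past 2-fold turned sign, both for *Hhip*: to −0.24 against blood without the second lane of E7.25 (2.75 without the first), and to 1.26 against E8.5 Endo without cells holding transcripts of both sexes. Ratios within 2-fold turned sign in 10 of 163 cases, of which *Hhip* between stages, reported as −0.25, came to 1.92 without the second lane of E7.25 and 0.15 without the second of E7.75. With a pseudocount of 10 CPM the genes called higher in mesoderm numbered 3 against blood and 2 against endothelium at E7.25, and 3 and 2 at E7.75. Each of these counts lost those of *Gli1*, *Gli2* and *Hhip* that had been called, and that against E8.5 Endo also lost *Smo*. None were called between E10.5 Endo and blood (0) or between stages (0), and 6 list genes in place of 18. With a call at 4-fold, 3 were called against blood and 2 against endothelium at E7.25, 0 between E10.5 Endo and blood, 0 between stages, and 7 list genes. Without cells holding transcripts of both sexes, 1 was called higher in Endo than in blood at E8.5 and 1 at E10.5. Summed counts left 0 for E10.5 Endo against blood. Between the stages, 0 genes were called with CPM from the cell totals and 0 after thinning to 840000 counts.

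Leaving out 1 lane or population at a time gave 4 to 6 genes called for E7.25 mesoderm against blood, 4 against E8.5 Endo, 6 and 5 to 6 for E7.75, 2 for E8.5 Endo against blood, 1 to 2 for E10.5 Endo against blood, and 0 to 4 between stages. Pairs of gene and population with detection in at least 50% of cells fell from 24 of 78 to 14 at 10 counts or more. By share of cells, the genes more frequent outside the haemato-endothelial class in all 4 lanes went from 2 to 0 with 3 of 6 genes as the limit, and pairs found together from 1 to 3 after thinning. The settings for the pathway lists, the levels in E8.5 Endo, the folds over the floor and the visceral endoderm sum were chosen after seeing the data. No paired analysis was possible because replicate numbers only name single cells and no test was made. Populations without replicates, single cells that carry a mean, and few cells with *Gli1* or *Hhip* limit these comparisons.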
